A study of Rattus norvegicus with 6 samples.

Results

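Many stretches of the rat genome are transcribed although no protein-coding gene lies there. The loci described here are the assembled loci of corneal epithelium that had no annotated transcript type, were assigned to 1 strand, overlapped no protein-coding locus on either strand, and had a mean of at least 0.5 FPKM (fragments per kilobase of locus, scaled to the reads of each library) over 6 libraries. The deposited tables held 61453 loci, of which 29622 had no transcript type, 9643 of these had a strand, 3008 of those overlapped no protein-coding locus, and 2902 of those reached 0.5 FPKM. A locus was counted as protein-coding where its list of types included protein_coding, also beside another type. With rows of that single type alone, 3380 loci would have been chosen. An annotated noncoding locus on either strand overlapped 222 of them (7.65%). The loci carry the names of the assembly (MSTRG and a number), and most have no gene symbol.

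The tissue was scraped corneal epithelium of male Brown Norway rats, taken at week 16. The 3 diabetic libraries came from rats given a single intraperitoneal dose of 50 mg/kg streptozocin (STZ), which destroys the insulin-producing cells of the pancreas, and the 3 normal libraries from rats given citrate buffer. The paper describes 6 rats, with epithelium of 3 diabetic rats and 3 normal controls sequenced. RNA came from 6 corneas in each group. The sources used here do not state how the corneas were divided among the libraries, so p-values measure the spread between these libraries. Library totals ran from 62288901 to 87040253 counts, and a count of 0 still allows up to 0.0345 to 0.0482 CPM (counts scaled to the library total), from counting error alone. On the first principal component of the tested loci diabetic replicates 2 and 3 lay apart from the other 4 libraries. The corneal epithelium markers Krt12 and Pax6 were present in every library, at 3660 to 4455 and 17.2 to 23.2 FPKM. Lens genes summed to 8.48 FPKM in diabetic replicate 3 and to 1329 FPKM in diabetic replicate 2, with the other libraries from 119 to 389 FPKM.

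Transcription outside coding genes has several known sources. Many long noncoding RNAs, though not all, are spliced transcripts with their own promoters. The long primary transcripts of microRNAs are cut at the hairpin by the enzyme Drosha, and polymerase often runs on past the annotated end of a gene. Many active promoters fire in both directions, so that a second transcript leaves the promoter on the opposite strand. Promoters that fire in both directions are often rich in CpG dinucleotides.

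Some of the loci flanked microRNA genes, whose mature products are shown here because these microRNAs are the named landmarks of those loci. Mature sequences are from RefSeq (GRCr8), written from the 5′ end with the seed (bases 2 to 8) in capitals. The first 3 share the let-7 seed, the next 2 share the miR-30 seed, and miR-183, miR-96 and miR-138 have seeds of their own.
let-7a-5p: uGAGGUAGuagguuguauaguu
let-7d-5p: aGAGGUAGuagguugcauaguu
let-7i-5p: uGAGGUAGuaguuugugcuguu
miR-30a-5p: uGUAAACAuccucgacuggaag
miR-30c-5p: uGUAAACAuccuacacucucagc
miR-183-5p: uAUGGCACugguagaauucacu
miR-96-5p: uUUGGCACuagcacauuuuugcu
miR-138-5p: aGCUGGUGuugugaaucaggccg

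Other loci began beside the start of a coding gene on the opposite strand. The promoters of 3 such genes are shown: C1ql3, whose neighbours differed between the groups, and Cpsf2 and Arid4a, whose neighbours were among the most abundant of their kind. Of these only Cpsf2 was CpG-rich by the limits given further on. Each is the RefSeq promoter of 300 bases on GRCr8, from 250 bases before to 50 bases after the start of the gene, on the strand of the gene, with every CG in capitals. All other coordinates given here are on rn6 and cannot be compared with these.
C1ql3 (chr17:81038195-81038494, minus strand): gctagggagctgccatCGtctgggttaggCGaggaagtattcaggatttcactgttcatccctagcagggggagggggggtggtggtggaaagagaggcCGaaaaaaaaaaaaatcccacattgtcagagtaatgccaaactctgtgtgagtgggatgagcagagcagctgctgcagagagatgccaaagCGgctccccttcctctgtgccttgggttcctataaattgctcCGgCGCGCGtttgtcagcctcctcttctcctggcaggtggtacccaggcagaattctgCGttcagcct
Cpsf2 (chr6:126888872-126889171, plus strand): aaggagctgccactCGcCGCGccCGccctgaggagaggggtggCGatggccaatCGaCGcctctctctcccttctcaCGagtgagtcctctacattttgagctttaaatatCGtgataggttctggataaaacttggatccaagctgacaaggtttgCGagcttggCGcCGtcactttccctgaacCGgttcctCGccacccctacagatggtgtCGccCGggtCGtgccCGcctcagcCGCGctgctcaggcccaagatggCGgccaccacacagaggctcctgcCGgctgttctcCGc
Arid4a (chr6:95258179-95258478, plus strand): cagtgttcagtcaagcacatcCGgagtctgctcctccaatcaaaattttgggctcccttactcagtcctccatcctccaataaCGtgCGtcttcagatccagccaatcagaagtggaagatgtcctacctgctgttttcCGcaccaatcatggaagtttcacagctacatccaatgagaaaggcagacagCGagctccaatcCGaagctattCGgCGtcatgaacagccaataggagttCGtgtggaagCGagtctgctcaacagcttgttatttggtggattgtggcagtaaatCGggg
C1ql3 had 9 CG dinucleotides in this window, Arid4a 11 and Cpsf2 23. The letters TATAAA, searched on both strands, stood 30 bases before the start of C1ql3 and were present in 13.02% of all promoters of protein-coding genes in the RefSeq table, or in 8.31% on the strand of the gene alone.

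The 2902 loci were shorter and thinner than coding genes. Their span from start to end had a median of 3103.5 bp (25% at or below 1093.5 bp, 75% at or below 8869.75 bp), against 22517.5 bp for the 12278 protein-coding loci that reached the same FPKM. Their median mean abundance was 1.90 FPKM or 291 counts per library, against 4.66 FPKM and 1530 counts for coding loci. Between the quartiles abundance ran only from 1.39 to 2.99 FPKM, and 1557 loci (53.7%) lay under 2 FPKM. Only 129 loci reached 10 FPKM and 7 reached 100 FPKM. The plus strand held 1508 loci and the minus strand 1394.

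The files do not list exons, but count and FPKM together give the length over which reads were counted. In 1700 loci this length matched the whole span within 5% and the locus is called contiguous here. In 1197 loci it was shorter, as in a spliced transcript, and the locus is called gapped. The remaining 5 loci had a longer length than their span. Gapped loci spanned a median of 6924 bp but had only 1252 bp of counted length, whereas contiguous loci spanned 1796 bp. Abundance was alike in both (1.87 FPKM for gapped and 1.91 FPKM for contiguous loci, as medians). The 224 annotated lincRNA loci that reached 0.5 FPKM were mostly gapped, with 9.82% contiguous, and had a median of 1.41 FPKM. A single assembled transcript was listed for 2538 of the 2902 loci, and the largest number at 1 locus was 98.

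The longest loci were all gapped. MSTRG.16220 spanned 1165869 bp on chromosome 15 (15697290 to 16863158, plus strand), yet its counted length was 863 bp and its mean was 1.94 FPKM. MSTRG.37915 spanned 583355 bp on chromosome 6 (74082003 to 74665357, plus strand) at 1.502 FPKM, with 944 bp of counted length. MSTRG.4625 spanned 508279 bp on chromosome 1 (180786881 to 181295159, plus strand), held 47 transcripts over 6561 bp of counted length, and reached 15.2 FPKM. In the first 2 of these under 1 kb of counted length thus stood for a far longer stretch of genome.

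The number of loci varied between chromosomes. For every 100 protein-coding loci there were 9.15 unannotated loci on chromosome X and 9.97 on chromosome 1. There were 21.1 on chromosome 17 and 19.3 on chromosome 19. Protein-coding loci of any FPKM were counted here, whereas the unannotated loci had to reach 0.5 FPKM. None lay on the mitochondrial chromosome, and 7 lay on Y, which has 9 coding loci in the tables. A gap of at most 5 kb on the same strand joined 795 loci (27.4%) into 316 runs of 2 or more, so that 2423 separate groups remained. The longest run held 11 loci on the minus strand of chromosome 7 (695604 to 1051862), with a run of 8 on the plus strand over the same stretch. The next held 10 loci on the minus strand within the first 357132 bp of chromosome 17, with 6 more on the plus strand there. Loci of 1 run may be pieces of a single transcript, and they are not independent of each other.

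The distance to the nearest protein-coding locus, measured between the facing ends, had a median of 13491 bp and ran from 1 to 2463390 bp. Of the 2902 loci 728 (25.1%) lay within 1 kb, 381 at 1 to 5 kb, 896 at 5 to 50 kb and 897 (30.9%) farther than 50 kb. The share of contiguous loci was 77.9% within 1 kb and 67.7%, 52.6% and 45.0% in the next 3 classes. The median distance was 5662.5 bp for contiguous and 31094 bp for gapped loci. The farthest 3 loci were all gapped. MSTRG.12709 (chromosome 13, 19211854 to 19215118, minus strand) lay 2463.39 kb from Cntnap5b and MSTRG.12707 (chromosome 13, 17625868 to 17638920, plus strand) lay 2230.25 kb from LOC304725. MSTRG.4611 (chromosome 1, 180503994 to 180531895, plus strand) lay 1493.74 kb from Rras2, and its counts of 0, 41 and 0 in normal and 34, 23 and 12 in diabetic replicates 1 to 3 were too few to compare.

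**Figure D1:**
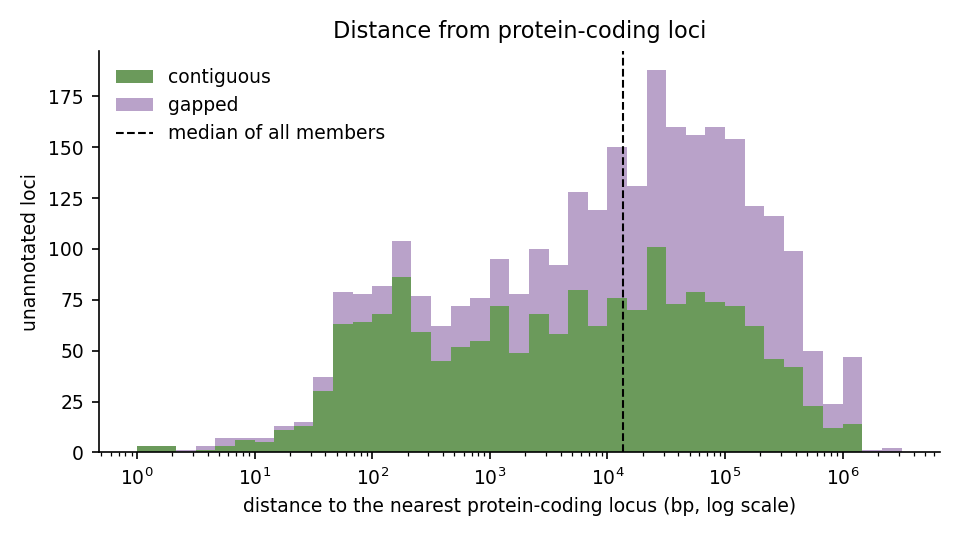
Number of unannotated loci (vertical axis) by distance to the nearest protein-coding locus in bp (horizontal axis, log scale), stacked by contiguous (1700) and gapped (1197) loci, without the 5 loci of neither kind. Contiguous loci make up most of the bars under 1 kb, and gapped loci gather between 5 and 50 kb and beyond, with the dashed line at the median of 13491 bp.

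Within 1 kb of a coding locus the commonest place was just past its end. Strand here is the assigned one. The sources used here do not say whether the libraries kept strand, so the strand classes of contiguous loci are uncertain. Of the 728 loci there, 336 lay downstream on the same strand, and 311 of these (92.6%) were contiguous. Another 146 lay upstream on the opposite strand, head to head with the gene, and of these only 69 (47.3%) were contiguous. The rest were 129 upstream on the same strand (78.3% contiguous) and 117 downstream on the opposite strand (73.5% contiguous). The loci just downstream had a median of 50.8% of the FPKM of the gene before them, and 79 of the 306 with a tested neighbour exceeded it. Those head to head had a median of 27.5% of the gene's FPKM, and 14 of 138 exceeded it.

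Several loci just downstream of a gene were as abundant as well-expressed coding genes. MSTRG.37294 (chromosome 6, 25590894 to 25598716, minus strand) began 220 bp past Fosl2, a subunit of the transcription factor AP-1, and was contiguous over 7823 bp. It had 35.4, 40.4 and 33.6 FPKM in normal replicates 1 to 3 and 39.9, 41.5 and 42.5 FPKM in diabetic replicates 1 to 3. Its mean of 38.9 FPKM stood beside 45.0 FPKM for Fosl2 itself, and the groups overlapped. MSTRG.41514 began 662 bp past Ep300, a histone acetyltransferase, and its mean of 16.7 FPKM exceeded the 11.2 FPKM of Ep300. MSTRG.22541, which lay 150 bp past Cmip, had 16.0 FPKM beside 6.13 FPKM for Cmip. MSTRG.22340 lay 405 bp past Zfhx3, a homeobox transcription factor, with 15.5 FPKM beside 6.81 FPKM. MSTRG.11339 lay 464 bp past Elavl1, an RNA-binding protein that stabilises mRNAs, with 14.5 FPKM beside 7.46 FPKM. These 5 were named after their values were seen.

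Head-to-head loci included MSTRG.38871 (chromosome 6, 125861221 to 125870354, minus strand), whose start lay 18 bp from Cpsf2, a subunit of the complex that cleaves mRNA 3′ ends. It was gapped, with 569 bp of counted length, and had 9.10, 9.19 and 11.7 FPKM in normal and 11.0, 8.74 and 5.77 FPKM in diabetic replicates 1 to 3, beside a mean of 7.92 FPKM for Cpsf2. MSTRG.38186 (chromosome 6, 93446704 to 93461688, minus strand) lay 25 bp from Arid4a, a chromatin regulator, and had 6.94 ± 0.41 FPKM in normal libraries and 5.72 ± 0.75 FPKM in diabetic ones (SD, n = 3). Its levels were 7.42, 6.77 and 6.64 FPKM in normal and 6.53, 5.59 and 5.05 FPKM in diabetic replicates 1 to 3, without overlap, at a limma adjusted p of 0.95. MSTRG.24488 lay 1 bp from Setd7, a lysine methyltransferase, with 3.38 ± 0.49 and 3.97 ± 0.58 FPKM. The ranges of MSTRG.38871 and MSTRG.24488 overlapped between the groups. MSTRG.38109, 153 bp from the glycosyltransferase gene Mgat2, varied widely instead, with 1.49, 21.3 and 17.8 FPKM in normal libraries and 2.33, 0 and 1.17 FPKM in diabetic ones. These 4 too were named after their values were seen.

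The genes met head to head mostly had CpG-rich promoters. Their RefSeq promoter windows had over 50% GC and more than 0.6 of the CG count that their base composition predicts in 81.5% of 108 matched genes. The share was 70.5% over 8670 matched coding genes that reached 0.5 FPKM, and 41.2% over all 21842 RefSeq coding genes. It was 69.4% for the 248 matched genes with an unannotated locus just downstream. For the nearest coding genes of loci 1 to 5 kb away it ran from 63.5% to 75.5% over the 4 combinations of strand and side, and for those of loci over 50 kb away from 45.3% to 64.6%, with 57.97% for loci upstream on the opposite strand. A gene could stand in several of these classes, and their strand is the assigned one, which is uncertain for contiguous loci. These shares are a description of the annotation and were not tested. By the same measures Cpsf2 was CpG-rich (61.0% GC, ratio 0.833), Arid4a stood just under the GC limit (49.3%, ratio 0.604) and C1ql3 was under the ratio limit (54.7% GC, ratio 0.409).

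Loci near a gene moved with it from library to library, depending on their place. For each locus and its nearest coding locus the deviations of the 6 libraries from their group means were correlated, which leaves the difference between groups out. Within 1 kb the median r was 0.44 for loci downstream on the same strand (231 of 306 above 0) and 0.37 for those downstream on the opposite strand (80 of 106). It was 0.28 upstream on the same strand (81 of 120) and 0.01 head to head (69 of 138 above 0). Beyond 50 kb the medians were 0.27, 0.20, 0.07 and 0.07 in the same order. All these pairs share the same 6 libraries and were not tested. Their classes rest on the assigned strand, which is uncertain for contiguous loci. The log2 fold changes between the groups had a correlation of 0.46 across the 306 pairs just downstream on the same strand, against 0.135 across the 117 such pairs beyond 50 kb. Across the 138 head-to-head pairs within 1 kb it was 0.48, but this rested on 1 pair: without C1ql3 and its neighbour it was 0.20 over 137 pairs.

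**Figure D2:**
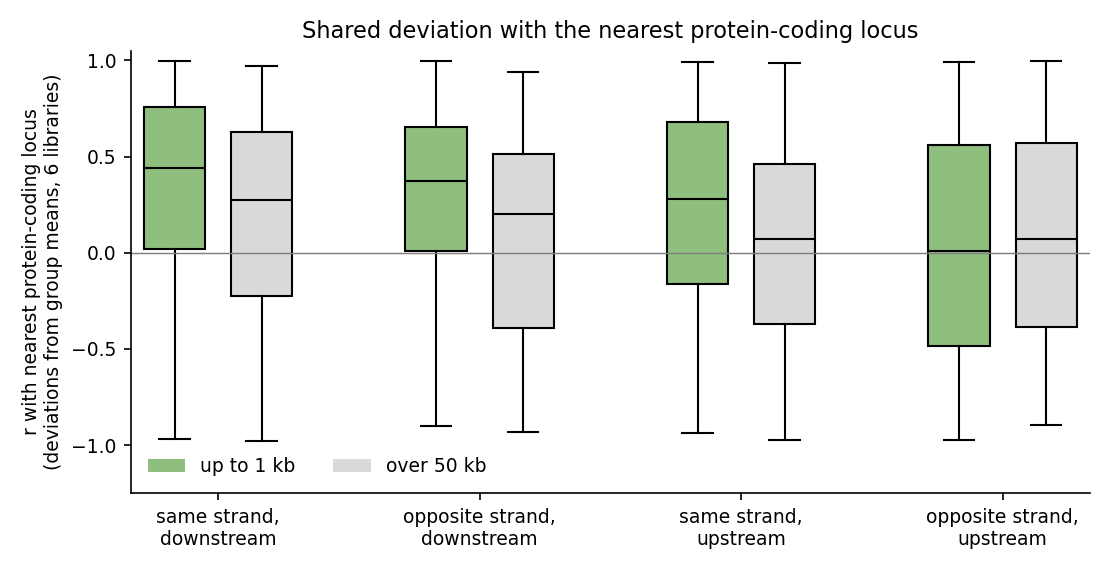
Correlation (vertical axis, r over 6 libraries of deviations from the group means) between an unannotated locus and its nearest protein-coding locus, by strand and side of the gene (horizontal axis), within 1 kb (green) and beyond 50 kb (grey). Boxes span the quartiles, the line is the median and whiskers reach up to 1.5 times the box, with points beyond not drawn: the medians within 1 kb run from 0.44 downstream on the same strand to 0.01 upstream on the opposite strand.

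Of the 2902 loci 42 lay within 5 kb of a microRNA row of the same strand, and 8 of these contained one. A further 10 ended or began within 100 bp of it. Of the 46 names on these rows 24 matched the RefSeq table of microRNAs. The loci had a median of 2.16 FPKM and 29 were contiguous. MSTRG.40583 (chromosome 7, 66802823 to 66808066, plus strand) began 2 bp past the let-7i row and had 3.46 ± 0.49 FPKM in normal libraries and 2.89 ± 0.57 FPKM in diabetic ones (SD, n = 3). A group of 3 pieces surrounded the cluster of let-7a1 and let-7d on the plus strand of chromosome 17. MSTRG.18918 (16409473 to 16415956) and MSTRG.18917 (16416372 to 16417516) lay before let-7a1, and MSTRG.18930 (16420468 to 16426640) began 391 bp past let-7d. Their levels were alike: 2.74 ± 0.29, 3.402 ± 0.08 and 2.44 ± 0.37 FPKM in normal libraries, and 2.54 ± 0.51, 3.11 ± 0.62 and 2.07 ± 0.34 FPKM in diabetic libraries.

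On chromosome 9 MSTRG.45236 (29526526 to 29542628, plus strand) ended 7 bp before miR-30a, and MSTRG.45239 (29562472 to 29568997, plus strand) began 13 bp past miR-30c2. The second varied little, with 2.09, 2.09 and 2.01 FPKM in normal and 1.99, 2.08 and 2.09 FPKM in diabetic replicates 1 to 3. MSTRG.45236 ranged from 0.340 to 3.19 FPKM without following the groups. MSTRG.44607 (chromosome 8, 131627947 to 131731698, plus strand), gapped over 103752 bp, ended 28 bp before miR-138-1, with 2.19 ± 0.52 FPKM in normal libraries and 3.47 ± 1.24 FPKM in diabetic ones. MSTRG.31603 (chromosome 4, 57463931 to 57468531, minus strand) lay 253 bp upstream of miR-183 and 460 bp upstream of miR-96, which sit in 1 cluster, with 1.60 ± 0.29 and 1.25 ± 0.74 FPKM. None of the 42 passed limma between groups. An unadjusted p under 0.05 was found for 1, which was higher in diabetic libraries, where 2.43% of all loci tested were, and 27 had a negative fold change, as had 51.0% of all loci. The mature microRNAs themselves were not measured in these libraries.

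The most abundant loci were few and variable. The highest mean was that of MSTRG.34979 (chromosome 5, 91131894 to 91134995, minus strand), which carries the name 5_8S_rRNA in the files. It had 213, 293 and 117 FPKM in normal and 128, 208 and 123 FPKM in diabetic replicates 1 to 3. The name was shared by 20 of the 2902 loci, among them MSTRG.34976, which spans MSTRG.34979 on the same strand, and MSTRG.1779, both also of the 8 most abundant. These 20 took 3.81% to 9.13% of the counts of all 2902 loci, depending on the library, and the ranges of the groups overlapped. Ribosomal genes are repeated in the genome, so reads on them can be placed at several loci, and their values are uncertain.

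The other 5 of the 8 most abundant were contiguous. MSTRG.1787 (chromosome 1, 11969018 to 11969454, plus strand), 79 bp past AABR07000398, ranged from 32.2 to 366 FPKM, and both ends of that range were diabetic libraries. MSTRG.2129 (chromosome 1, 36360985 to 36361677, plus strand), 6229 bp past Srd5a1, ranged from 62.1 to 288 FPKM. MSTRG.24641 (chromosome 2, 151688226 to 151688449, minus strand), 2424 bp from Rap2b, ranged from 57.5 to 127 FPKM. The last 2 were steadier. MSTRG.3952 (chromosome 1, 141090493 to 141090787, plus strand), 3088 bp past Abhd2, had 139 ± 9 FPKM in normal libraries and 137 ± 20 FPKM in diabetic ones. MSTRG.25431 (chromosome 2, 197787106 to 197790267, plus strand), 7427 bp from Adamtsl4, had 120 ± 7 and 125 ± 13 FPKM, at 26187 to 37767 counts per library. In all 8 the ranges of the groups overlapped, and none passed the test. Together the 10 loci of most counts held 14.6% of the counts of the 2902.

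Variation between libraries of 1 group was wider than for coding genes. The coefficient of variation within groups had a median of 25.7%, against 13.1% for protein-coding loci and 38.7% for the 19441 unannotated loci without a strand, which were also the thinnest (56.3 counts as a median). For annotated lincRNA loci this median was 27.7%, and over all loci tested 25.6%. A count of 0 in at least 1 library was found for 204 loci (7.03%, against 0.741% of coding loci, 11.2% of annotated lincRNA loci and 5.46% of all loci tested). In 137 of these another library held at least 100 counts. Such on-and-off loci overlapped another of the 2902 loci on the opposite strand in 49.6% of cases, whereas 19.7% of the rest did so. In all 614 loci (21.2%) overlapped another on the opposite strand, and 325 overlapped one on the same strand.

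Pairs of loci on both strands of 1 stretch were looked at next. Of 479 overlapping pairs 45 shared at least 90% of the longer interval and 11 had the same start and end. In 5 pairs, all contiguous, every library gave the same count to both strands (within 1% or 2 counts) or gave 0 to 1 of them. MSTRG.17278 (plus strand) and MSTRG.17277 (minus strand) both covered 106685305 to 106721921 on chromosome 15. The plus locus had 14709, 14499 and 16283 counts in normal and 0, 12294 and 10657 counts in diabetic replicates 1 to 3. The minus locus had 14709, 14498 and 0 counts in normal and 13794, 12294 and 10655 counts in diabetic replicates 1 to 3. Where both had counts they were equal within 2, and where 1 was at 0 the other was not. MSTRG.20882 and MSTRG.20881 (chromosome 18, 38497482 to 38498094) were equal within 1% where both had counts, with 0 counts on the plus strand in diabetic replicates 1 and 3 and 3733 and 2750 counts on the minus strand there.

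In these pairs a count of 0 on 1 strand thus stood beside a full count on the other. MSTRG.24534 (chromosome 2, 141252662 to 141276337, plus strand) and MSTRG.24535 (141267248 to 141276337, minus strand) overlapped only in part. The plus locus had 13264, 13162 and 11752 counts in normal and 0, 0 and 9474 counts in diabetic replicates 1 to 3. The minus locus had 5712, 0 and 935 counts in normal and 5635, 3001 and 4083 counts in diabetic replicates 1 to 3. The sources used here do not say whether the libraries kept the strand of the RNA. Without strand, reads of a contiguous locus and of a locus opposite to it cannot be told apart.

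**Figure D3:**
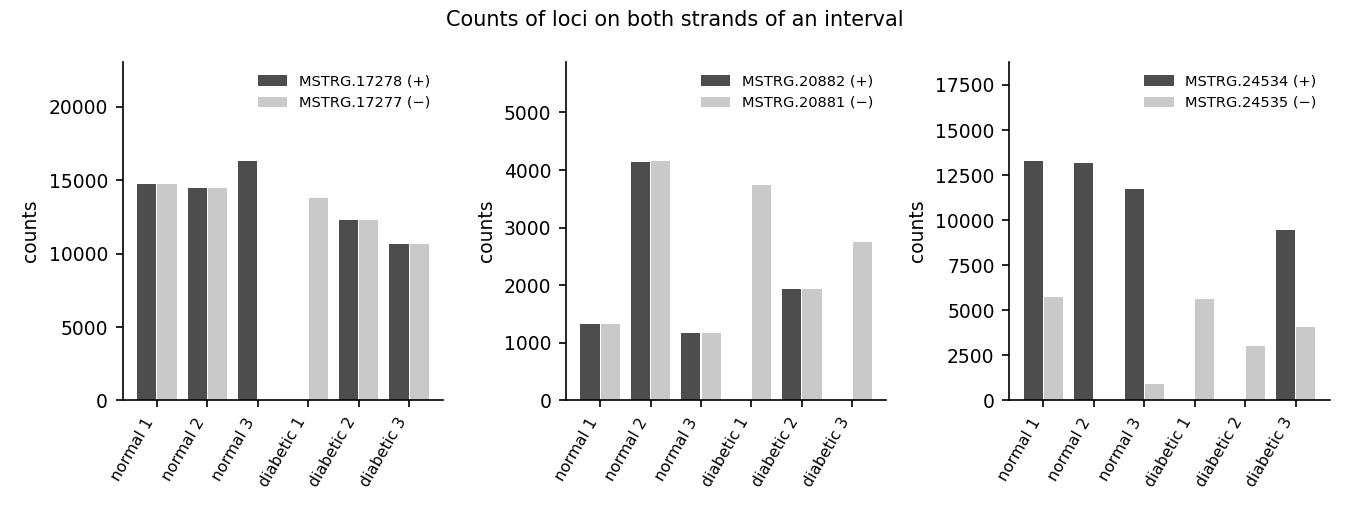
Counts (vertical axes, linear from 0) of 3 pairs of unannotated loci on opposite strands in each of the 6 libraries, with the plus-strand locus in dark and the minus-strand locus in light grey. In the first 2 pairs the bars are equal or 1 of them is at 0, for instance in diabetic replicate 1, where 13794 counts stood on the minus strand of the first pair and 0 on the plus strand.

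Diabetic and normal libraries were then compared. log2(FPKM + 1) was quantile-normalized over all 42551 loci with a mean of at least 0.5 FPKM and tested with limma. The threshold was an adjusted p (Benjamini-Hochberg) under 0.05 with a fold change above 1.2. Of the 2902 loci 3 were higher in diabetic libraries, where 0.0188% of all loci tested were, and 0 were lower, where 0.00705% of all were. At an unadjusted limma p under 0.05 and the same fold, 74 were higher (2.55%, against 2.43% of all loci) and 95 lower (3.27%, against 2.32% of all). The quasi-likelihood test of edgeR on the counts passed 2 higher (0.0094% of all loci) and 0 lower (0.0047% of all). DESeq2 passed 10 higher (0.143% of all) and 7 lower (0.0893% of all).

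Most loci differed little. The median log2 fold change was -0.02 over the 2902 loci and -0.005 over all loci tested, and 68.5% of the 2902 were within 0.26 of 0 on the log2 scale, against 71.5% of all. In 102 loci (3.51%) all 3 diabetic libraries lay above all 3 normal ones, and in 196 (6.75%) all lay below. Over all loci tested these shares were 3.94% and 5.72%. With CPM after the TMM scaling of edgeR in place of FPKM, 125 of the 2902 lay above and 168 below. The shares over all loci were not computed on that scale. The share of the counts of a library that fell on the 2902 loci was 4.11%, 4.07% and 4.14% in normal and 4.24%, 3.94% and 3.97% in diabetic replicates 1 to 3. The means of 4.11 ± 0.03% and 4.05 ± 0.17% did not differ beyond the spread (p = 0.5, two-sided exact permutation test, which cannot go below 0.1 with 3 against 3).

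**Figure D4:**
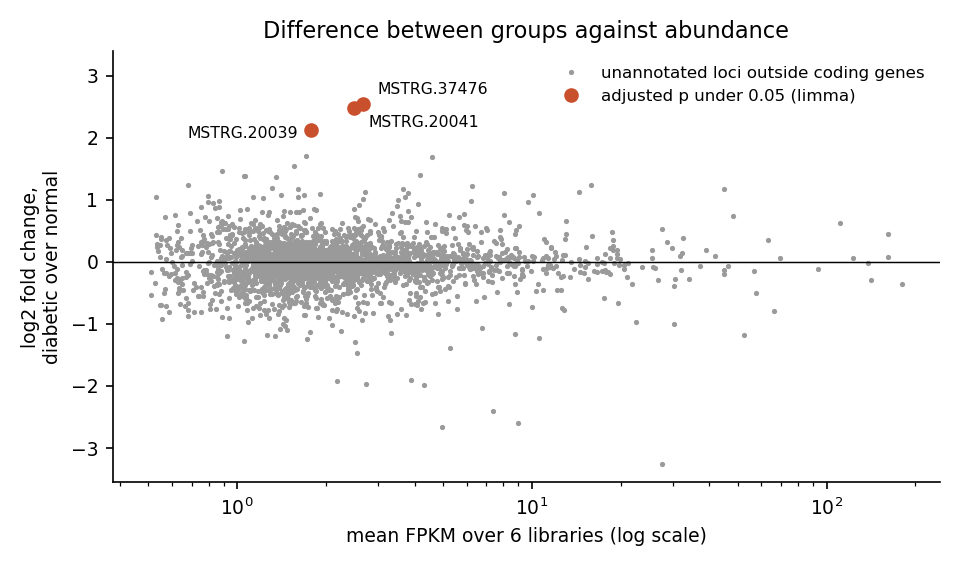
Log2 fold change on the log2(FPKM + 1) scale (vertical axis, diabetic over normal) against mean FPKM over 6 libraries (horizontal axis, log scale) for the 2902 unannotated loci, 1 grey point each, with the 3 that passed limma in orange. The 3 stand at 2.13, 2.48 and 2.54, above all other points, and most points lie near 0.

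Of the 3 loci that passed, 2 lay beside C1ql3 on chromosome 17. C1ql3 encodes a secreted C1q-like protein known from synapses. MSTRG.20041 (80322542 to 80327244, plus strand) lay 1861 bp upstream of C1ql3 on the opposite strand and was gapped, with 2896 bp of counted length. It had 27, 22 and 20 counts in normal and 1248, 1008 and 1165 counts in diabetic replicates 1 to 3, or 0.1004, 0.0845 and 0.0738 FPKM against 4.35, 4.90 and 5.47 FPKM. All diabetic libraries lay far above all normal ones, and the means of 0.086 ± 0.013 and 4.91 ± 0.56 FPKM (SD, n = 3) were 56.9-fold apart. On the log2(FPKM + 1) scale the difference was 2.48 ± 0.15 (SE), with a limma adjusted p of 0.00412, and edgeR gave an adjusted p of 0.00114. This scale understates the change of a locus that is near 0 in 1 group.

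MSTRG.20039 (80320967 to 80321571, plus strand) lay between that locus and C1ql3, 286 bp from the gene, and was contiguous. It had 4, 0 and 4 counts in normal and 198, 129 and 189 counts in diabetic libraries, a difference of 2.13 ± 0.17 on the log2 scale with a limma adjusted p of 0.0193. With edgeR its adjusted p was 0.156. MSTRG.20040, on the minus strand of the same stretch (80321023 to 80321581), had 0, 0 and 0 counts in normal and 75, 76 and 35 counts in diabetic libraries. That is at least 23.0-fold higher when 3 counts are set for each normal library, but its limma adjusted p was 0.953. It was also among those that passed DESeq2. Like MSTRG.20041, MSTRG.20039 and MSTRG.20040 reached 0.5 FPKM on average only through the diabetic libraries. Their values come from overlapping intervals and cannot be told apart without strand.

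The loci on either side were set beside them. C1ql3 itself had 0.0599, 0.309 and 0.150 FPKM in normal libraries and 3.57, 3.44 and 3.63 FPKM in diabetic ones, and passed limma (adjusted p = 0.0193). MSTRG.20037, an unannotated plus-strand locus at the 3′ end of C1ql3 that overlaps it by a few bases, had 0.495 ± 0.290 and 3.98 ± 0.43 FPKM. Pter, the coding gene before it on the plus strand, had 4.93 ± 0.20 and 7.66 ± 0.08 FPKM, without overlap between the groups, at a limma adjusted p of 0.793. Beyond MSTRG.20041 lay 11 short loci without a strand, of which 4 did not overlap between the groups, all higher in diabetic libraries (3.94% of all loci tested were so placed), and none passed. Rsu1, the next coding gene, had 6.65 ± 1.44 and 6.78 ± 0.75 FPKM. All 3 diabetic libraries thus lay above all 3 normal ones at each of the loci from Pter to MSTRG.20041, and the groups overlapped at Rsu1. In the RefSeq table of GRCr8 a long noncoding RNA, LOC134482609, is listed beside C1ql3, and whether it is the same transcript as MSTRG.20041 was not tested.

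**Figure D5:**
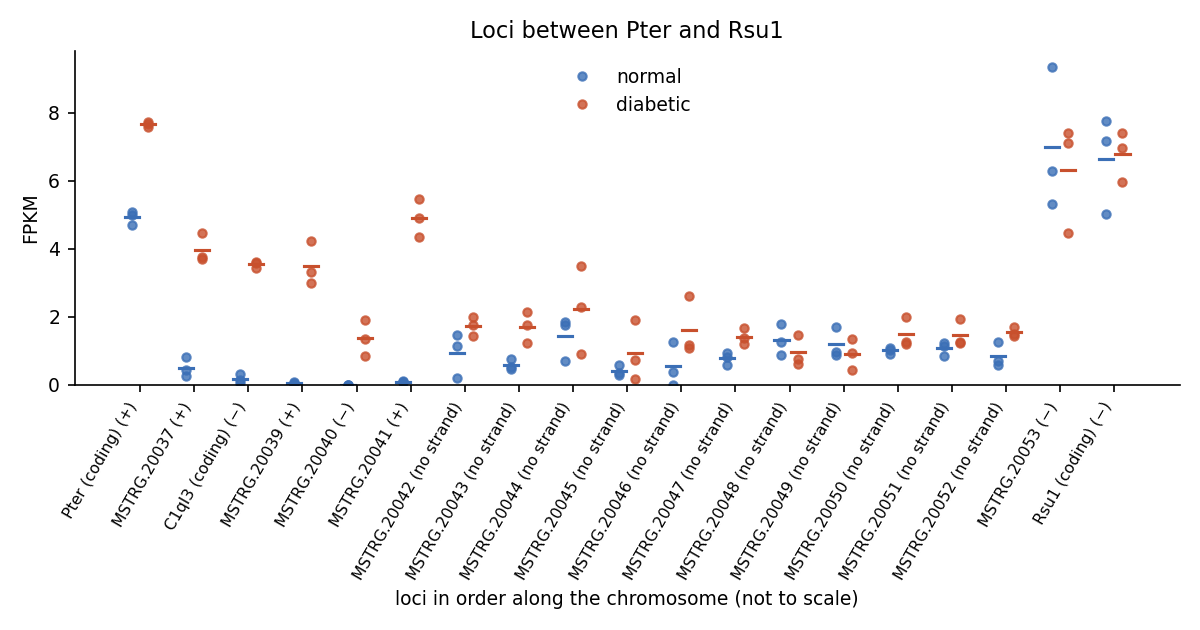
FPKM (vertical axis, linear from 0) of each locus from Pter to Rsu1 on chromosome 17 in order along the chromosome (horizontal axis, not to scale), with 1 point per library, normal in blue and diabetic in orange, and bars at the group means. From MSTRG.20037 to MSTRG.20041 the normal libraries lie at or under 0.815 FPKM and the diabetic libraries at or above 0.846 FPKM, while both groups mix at Rsu1.

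The third locus that passed was MSTRG.37476 (chromosome 6, 30543467 to 30543968, plus strand), contiguous and 94765 bp from AABR07063424. It had 0, 0 and 8 counts in normal and 321, 109 and 236 counts in diabetic libraries, a difference of 2.54 ± 0.25 on the log2 scale with a limma adjusted p of 0.0468. It lay inside MSTRG.37475, a gapped locus of the minus strand that had 70, 498 and 12 counts in normal and 25, 20 and 8 counts in diabetic libraries. With edgeR the adjusted p of MSTRG.37476 was 0.556, and with DESeq2 0.0191. It also missed the limma threshold without quantile normalization (adjusted p = 0.059), without the trend (0.0997) and with a pseudocount of 0.1 (0.115). Leaving out 1 library at a time, the limma adjusted p ran from 0.0189 to 0.0713 for MSTRG.20041, which was lost without any 1 of the diabetic libraries. It ran from 0.0694 to 0.168 for MSTRG.20039, which was lost each time, and from 0.038 to 0.323 for MSTRG.37476, which passed only without diabetic replicate 2.

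A further 2 loci were at 0 counts throughout 1 group while each library of the other group had 50 or more. MSTRG.16236 (chromosome 15, 16061426 to 16065409, minus strand) had 0 counts in each normal library and 391, 285 and 341 counts in diabetic replicates 1 to 3, at least 126-fold higher against 3 counts for each normal library. It passed edgeR (adjusted p = 0.0231) but not limma (0.953), and its mean of 0.529 FPKM reached the limit of 0.5 FPKM through the diabetic libraries alone, as did MSTRG.37476 and MSTRG.39466. It lay within a longer locus of the same strand, MSTRG.16235, which had 2036, 2157 and 2504 counts in normal and 1703, 1221 and 1392 counts in diabetic libraries. Reads of the shared stretch could go to either row. MSTRG.39466 (chromosome 7, 3517683 to 3518572, minus strand), gapped and 17986 bp from the olfactory receptor gene Olr878, had 0 counts in each normal library and 180, 90 and 77 counts in diabetic libraries, at least 41.3-fold higher by the same floor. It passed neither limma (adjusted p = 0.804) nor edgeR (0.156), but passed DESeq2 (8.62e-10).

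Of the higher loci that did not overlap between the groups and did not pass, the smallest unadjusted p was that of MSTRG.46567 (chromosome 9, 122081305 to 122084124, minus strand), contiguous and 15084 bp from AABR07068852. It had 6.68, 5.65 and 6.56 FPKM in normal and 12.99, 11.39 and 15.03 FPKM in diabetic replicates 1 to 3, and the means were 2.09-fold apart. Its difference of 0.97 ± 0.13 on the log2 scale did not pass limma (adjusted p = 0.219) or edgeR (0.22), but passed DESeq2 (6.01e-07). A same-strand locus around it, MSTRG.46559, had 1884, 1304 and 982 counts in normal and 2634, 1635 and 1485 counts in diabetic libraries. An opposite-strand locus that covers it whole, MSTRG.46566, had 0, 470 and 236 against 267, 236 and 85 counts. MSTRG.46561 on the same strand and MSTRG.46562 on the opposite strand also overlapped it. MSTRG.28832 (chromosome 3, 76984461 to 76985450, minus strand), 32736 bp from Olr646, had 2.51 ± 0.60 and 5.07 ± 0.61 FPKM. Its limma adjusted p was 0.953.

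Of the loci that were lower, MSTRG.16398 (chromosome 15, 27884113 to 27897917, plus strand) had the smallest unadjusted p. It began 517 bp past Pnp, the purine nucleoside phosphorylase gene, on the same strand, and was contiguous over 13805 bp. It had 5.58, 5.07 and 5.03 FPKM in normal libraries and 3.04, 2.92 and 2.93 FPKM in diabetic ones, with little spread within either group. The difference of -0.64 ± 0.11 on the log2 scale did not pass limma (adjusted p = 0.793) or edgeR (0.22), but passed DESeq2 (2.34e-05). Pnp itself had a mean of 67.1 FPKM and a log2 difference of -0.05, so the level of the gene itself was nearly the same in both groups. A minus-strand locus opposite to it, MSTRG.16399, had 1710, 1845 and 0 counts in normal and 2303, 0 and 12 counts in diabetic libraries.

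A further 4 lower loci had limma adjusted p values of 0.953 each. MSTRG.34048 (chromosome 5, 17930744 to 17932708, plus strand), 267155 bp from Impad1, had 1.91 ± 0.25 FPKM in normal libraries and 0.605 ± 0.183 FPKM in diabetic ones. A locus opposite to it, MSTRG.34049, had 15, 14 and 152 counts in normal and 67, 42 and 21 counts in diabetic libraries. MSTRG.41056 (chromosome 7, 99478481 to 99478950, minus strand), 130241 bp from Sqle, had 57, 88 and 61 counts in normal and 7, 12 and 0 counts in diabetic libraries, while the locus opposite to it had 40, 67 and 14 against 153, 30 and 61 counts. MSTRG.26507 (chromosome 20, 128544 to 128928, minus strand) lay 1420 bp past the class I histocompatibility gene RT1-CE10 and had 51, 134 and 86 against 2, 0 and 28 counts. Genes of that family are near copies of each other, and the value is uncertain. MSTRG.46100 (chromosome 9, 93348468 to 93349547, plus strand), 18235 bp past B3gnt7, had 188, 194 and 272 against 0, 26 and 84 counts. The locus opposite to it, MSTRG.46099, had 221, 248 and 317 against 241, 49 and 91 counts. The diabetic means of MSTRG.41056 and MSTRG.46100 were 0.188 and 0.461 FPKM. Both thus reached the limit of 0.5 FPKM only through the normal libraries.

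The DESeq2 calls that neither limma nor edgeR shared add a few well-counted loci. MSTRG.31643 (chromosome 4, 58371380 to 58383946, plus strand), contiguous over 12567 bp and 120582 bp from Klf14, had 1.88, 1.80 and 0.747 FPKM in normal libraries and 3.73, 4.197 and 3.66 FPKM in diabetic ones, with a DESeq2 adjusted p of 0.00589. It lay within the span of MSTRG.31641, an annotated lincRNA locus of the minus strand. That locus had 18200, 15590 and 12514 counts in normal and 20210, 14576 and 17523 counts in diabetic libraries. MSTRG.31219 (chromosome 4, 27059504 to 27071201, minus strand), 104042 bp from the sterol demethylase gene Cyp51, had 1110, 1239 and 1065 counts in normal and 794, 490 and 463 counts in diabetic libraries. MSTRG.1731 (chromosome 1, 7743180 to 7745846, plus strand), 696 bp past Adat2, had 467, 373 and 448 against 826, 520 and 824 counts. These 3 were named after their values were seen, and each had a limma adjusted p of 0.953.

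Cells other than epithelium can add loci of their own. The macrophage list (3 of 4 genes found) summed to 3.53 to 5.36 FPKM in normal libraries and 6.17 to 12.6 FPKM in diabetic ones. Of the 3 genes only Cd14 was higher under diabetes, at 5.29 to 11.95 FPKM against 1.94 to 4.43 FPKM. Csf1r had a lower diabetic mean (0.608 against 0.850 FPKM), and so had Ptprc (0.164 against 0.330 FPKM). For both of these genes the groups overlapped. Over all 6 libraries Csf1r ran from 0.573 to 1.14 FPKM and Ptprc from 0.0895 to 0.453 FPKM. The list of stromal genes summed to 797 to 1015 FPKM in normal libraries and 732 to 793 FPKM in diabetic ones, over 5 of 7 genes found. Lists of lens (8 of 8 found) and conjunctival genes (2 of 3 found) overlapped between the groups. The part of other cells in the differences above was not tested.

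At the lower limit of 0.5 FPKM the loci just inside were MSTRG.12721 (mean of 0.508 FPKM) and MSTRG.2206 (0.511 FPKM), and those just outside were MSTRG.27248 (0.496 FPKM) and MSTRG.10336 (0.486 FPKM). All 4 were carried by a few libraries: MSTRG.12721 by normal replicate 2 with 228 counts against 6 to 35 elsewhere, and MSTRG.27248 by normal replicate 1 and diabetic replicate 3 with 267 and 169 counts against 0 elsewhere.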

How the data were processed

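Total RNA from 6 libraries of scraped corneal epithelium was sequenced. Per the labels, reads were trimmed with cutadapt, checked with FastQC and handled with Bowtie2, on rn6. The sources used here do not name the program that assembled and counted the loci. The authors deposited, per library and locus, a raw count and an FPKM value. A placeholder FPKM of 0.0001 at a count of 0 was set to 0 (86380 values). The length over which reads were counted was computed as count over FPKM, scaled per library on 403 long loci without a strand, and a locus was called contiguous at a ratio to its span of 0.95 to 1.05.

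The main test was limma 3.58.1 (R 4.3.3) with a mean-variance trend on quantile-normalized log2(FPKM + 1) over 42551 loci with a mean of at least 0.5 FPKM. The threshold was an adjusted p (Benjamini-Hochberg) under 0.05 with a fold above 1.2. Alternatives were edgeR 4.0.16 (quasi-likelihood) and DESeq2 1.42.0 on the counts, a pseudocount of 0.1, other normalization and filters, loci at least 5 kb from coding loci, a replicate block and leaving out each library. Scripts were tested on simulated data. Members and lists were chosen with earlier results of these data known. Named loci were those that passed, the 6 higher and 6 lower of smallest p without overlap between groups and with at least 50 counts in each library of 1 group, the 8 most abundant, the 3 farthest and 3 longest, those at 0 in 1 group and at least 50 counts in each library of the other, and the 2 on either side of the FPKM limit. Of the 6 lower loci 1 is not reported here. Other loci were not named by a rule set in advance, also where the text does not say that their values were seen first. Among them are the pairs on both strands and the loci beside microRNAs. Promoters and microRNAs were matched by symbol to RefSeq tables of GRCr8, and coordinates of the loci are on rn6. Floors of 3 counts cover counting error only.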

Additional observations from a re-analysis of the deposited data

How the results depend on the processing

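The median log2 fold change of the 2902 loci stayed negative in every alternative run. None of the 13 named loci that were refitted turned its direction. They had been chosen without overlap between the groups, so leaving out a library could not turn them, and this is no check of them. The 3 loci that passed as higher in diabetic libraries became 1 with a pseudocount of 0.1, 1 when any locus with a count was tested, 1 among loci at least 5 kb from coding loci, 10 with DESeq2 and 0 to 2 when 1 library was left out. The 0 that passed as lower became 7 with DESeq2 and 0 to 2 when 1 library was left out. At an unadjusted p the 74 higher and 95 lower of the 2902 loci became 46 and 57 of the 1793 loci at 5 kb or more. Leaving out 1 library gave 57 to 130 higher and 62 to 240 lower, with both highest values without diabetic replicate 1 and 62 lower without diabetic replicate 2. The 102 and 196 loci without overlap between groups became 61 and 108 at 5 kb or more, since fewer loci are left there. The median of -0.0224 was -0.0356 with a pseudocount of 0.1, -0.0382 without quantile normalization, -0.00544 at 5 kb or more and -0.0396 to -0.0121 when 1 library was left out. With a replicate block 0 loci passed as higher, and same-numbered libraries did not deviate together (r of -0.01, 0.03 and 0.03), so the numbers were not taken to pair them.

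After the data were seen, loci that overlap another on the opposite strand were left out. Of the 2288 loci that remained, 1 passed as higher, and at an unadjusted p 49 were higher and 71 lower. With the 3380 loci of the other reading of the coding type, 3 passed as higher and 0 as lower. The causes of these shifts were otherwise not tested. Totals of 62288901 to 87040253 counts, with a median of 291 counts per locus, limit what can be seen at the thin loci.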
